A study of Homo sapiens with 3 samples.

Results

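Small nucleolar RNA host genes (SNHG genes), a set of named long non-coding RNAs and the long intergenic non-coding RNA (LINC) genes were followed in SW480, a human cell line established from a colon adenocarcinoma, after knockdown of the RNA-binding protein RBMS1. Members were taken by symbol from the non-coding (NR) rows of the authors' deposited table: SNHG or LINC followed by digits, plus GAS5, MALAT1, NEAT1, H19, MIR17HG, MIR22HG, CYTOR and PVT1. This gave 132 genes with 172 transcripts, of 12582 genes in the table. They comprise 24 host genes, 104 LINC genes and the 4 other RNAs MALAT1, NEAT1, CYTOR and PVT1. Of 29 SNHG symbols in RefSeq 21 had a value, and SNHG14, SNHG18, SNHG22, SNHG26, SNHG27, SNHG28, SNHG30, SNHG32 and H19 were not analysed here. Of 2304 LINC symbols 104 had a value.

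The groups were SW480 cells transduced with control shRNA (shControl, 2 libraries) and SW480 cells transduced with 1 shRNA against RBMS1 (shRBMS1, 1 library), both taken at 48 hours. Every group is SW480, with no other treatment in the labels, and the sources used here do not say whether the controls carry 1 hairpin or several, or whether they are separate cultures. Total RNA was depleted of ribosomal RNA and sequenced. Values are log2 fold changes, shRBMS1 over shControl, as the authors made them; where a gene has several transcripts their median stands for it. With 1 knockdown library there is no replicate check, no error and no test, and the depth behind each value is unknown, so the results are descriptions of these 3 libraries. The direction of the ratio is not in the file header and was taken so that RBMS1 lies lower: the authors' deposited table then puts it at −1.49, which is 35.6% of the control level. In bulk RNA, fewer cells of a type and less RNA per cell cannot be told apart. Of markers fixed for colon epithelium, 6 of 9 were in the table (EPCAM, CDH1, KRT8, KRT18, CDX2 and VIL1, between −2.33 and 0.05), against 1 of 5 for leukocytes (CD68), 0 of 5 for fibroblasts and 0 of 4 for endothelium. Presence in the table is not a level.

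A host gene is transcribed as a spliced RNA whose introns hold small nucleolar RNAs (snoRNAs) or whose body holds microRNA hairpins. The snoRNAs are trimmed from the introns and guide chemical modification of ribosomal RNA, box C/D snoRNAs 2′-O-methylation and box H/ACA snoRNAs pseudouridylation, while the spliced exons of many SNHG genes are removed by nonsense-mediated decay when translated. Intron and exon products of 1 transcription unit can therefore differ in level. LINC is a naming class for long RNAs between protein-coding genes and is not a family with a common function.

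Host genes lay mostly above 0 and near it, whereas LINC genes were centred near 0 with longer tails. The median of the 24 host genes in the authors' deposited table was 0.29 with quartiles of −0.04 and 0.39, and 17 of 24 lay above 0. The 104 LINC genes had a median of −0.05 with quartiles of −0.37 and 0.36, and 45 of 104 lay above 0. The difference of the medians was 0.34. It was smaller in the genes that overlap no measured protein-coding gene, where the host median was 0.12 (17 genes) and the LINC median −0.09 (98 genes), and with the transcript nearest 0 standing for each gene, where they were 0.15 and −0.03. All 568 genes of the long non-coding class had a median of 0.03 with quartiles of −0.29 and 0.38, and all 12582 genes 0.01 with quartiles of −0.25 and 0.23. Above 0 lay 52.5% of the long non-coding genes and 51.5% of all genes.

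By gene value, no host gene lay 1 or more from 0 on the log2 scale, while 20 LINC genes did, 13 of them higher and 7 lower. That value is a median of several transcripts for 12 of 24 hosts but for 8 of 104 LINC genes. Single transcripts of SNHG3, SNHG8, SNHG16, SNHG17 and SNHG29 did lie beyond 1, as did some of LINC00491, LINC00659 and LINC01128. Of the 12 hosts with 1 transcript 0 lay beyond 1. The 13 and 7 LINC genes all came from the 96 with 1 transcript. Over all genes 3.95% lay higher by at least 1 and 3.96% lower, 7.91% in all. Over long non-coding genes the shares were 7.22% and 4.75%, 12% in all. The LINC shares, 12.5% and 6.73%, are above both backgrounds, and the 0 of 24 for host genes is below them. Genes are not replicates, so no test stands behind these differences in share. They also depend on the threshold: at 0.58, 3 host genes lay higher and 4 lower, and 17 LINC genes lay in each direction. The share over all genes at 0.58 is not reported here. The lowest host gene was at −0.65 and the highest at 0.78. Every host gene median thus lay inside the range of the LINC gene medians, which ran from −1.92 to past 2.

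**Figure D1:**
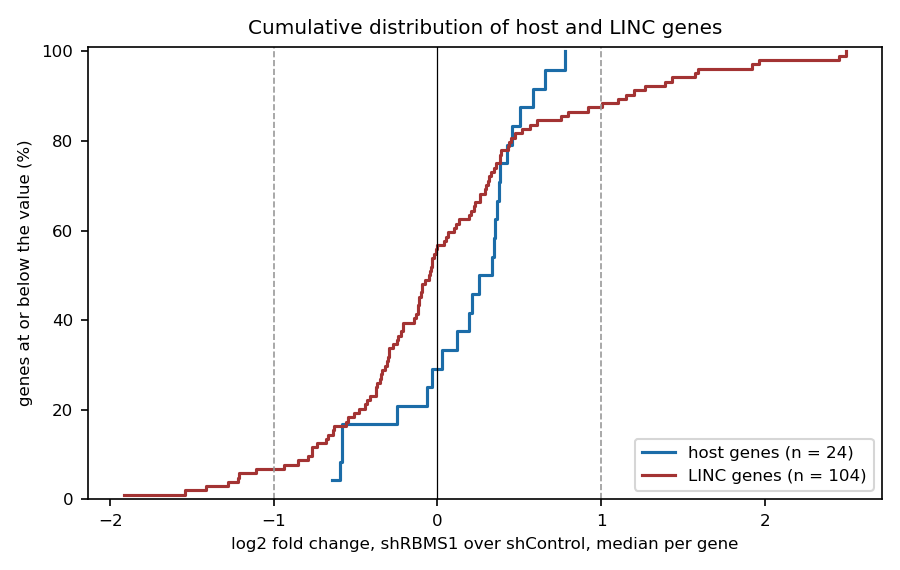
Cumulative share of genes (y axis, %) at or below each log2 fold change (x axis, knockdown over control, median per gene) for 24 host genes and 104 LINC genes. Dashed lines mark 1 in each direction: the host curve stays between them, and the LINC curve runs past both, from −1.92 to beyond 2.

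Among the snoRNA hosts, the SNHG genes and GAS5, 16 of 22 lay above 0, with a median of 0.29. SNHG19, which carries SNORD60, was highest at 0.78, which is 171% of the control level in the authors' deposited table. SNHG3, host of the SNORA73 pair, followed at 0.66, the median of 0.18 and 1.14. GAS5, the growth-arrest gene that carries 10 measured box C/D snoRNAs, was at 0.50, which is 142% of the control level in the authors' deposited table, and SNHG1, first described as the U22 host, at 0.46. Among long non-coding genes GAS5 lay at percentile 81.5 and SNHG1 at 79.9.

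A second tier of hosts lay between 0.19 and 0.42 in the authors' deposited table. SNHG33 stood at 0.42 from transcripts at 0.01 and 0.84, SNHG6 at 0.38, SNHG4 at 0.38, SNHG10 at 0.36, SNHG29 at 0.35, SNHG12 at 0.35 and SNHG31 at 0.33. SNHG20 was at 0.25, SNHG5 at 0.21 and SNHG7 at 0.19 in the authors' deposited table. SNHG11, SNHG8, SNHG15 and SNHG25 sat close to 0, at 0.12, 0.03, −0.03 and −0.06. The values of SNHG31 and SNHG11 are shared to the last digit with another gene.

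A smaller set of snoRNA hosts lay lower. SNHG17, host of SNORA71 copies, was lowest at −0.65, which is 63.8% of the control level, the median of −0.16 and −1.13 in the authors' deposited table. SNHG9, a short host of SNORA78, was at −0.60, which is 66.2% of the control level. SNHG16, which carries the SNORD1 snoRNAs, was at −0.58, which is 66.9% of the control level, and SNHG21 at −0.25. All 4 transcripts of SNHG16 lay below 0 in the authors' deposited table, at −1.06, −0.96, −0.20 and −0.10. They link to models of 1947 or 2424 bases and come from the same 3 libraries, so they are not separate checks of the direction.

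**Figure D2:**
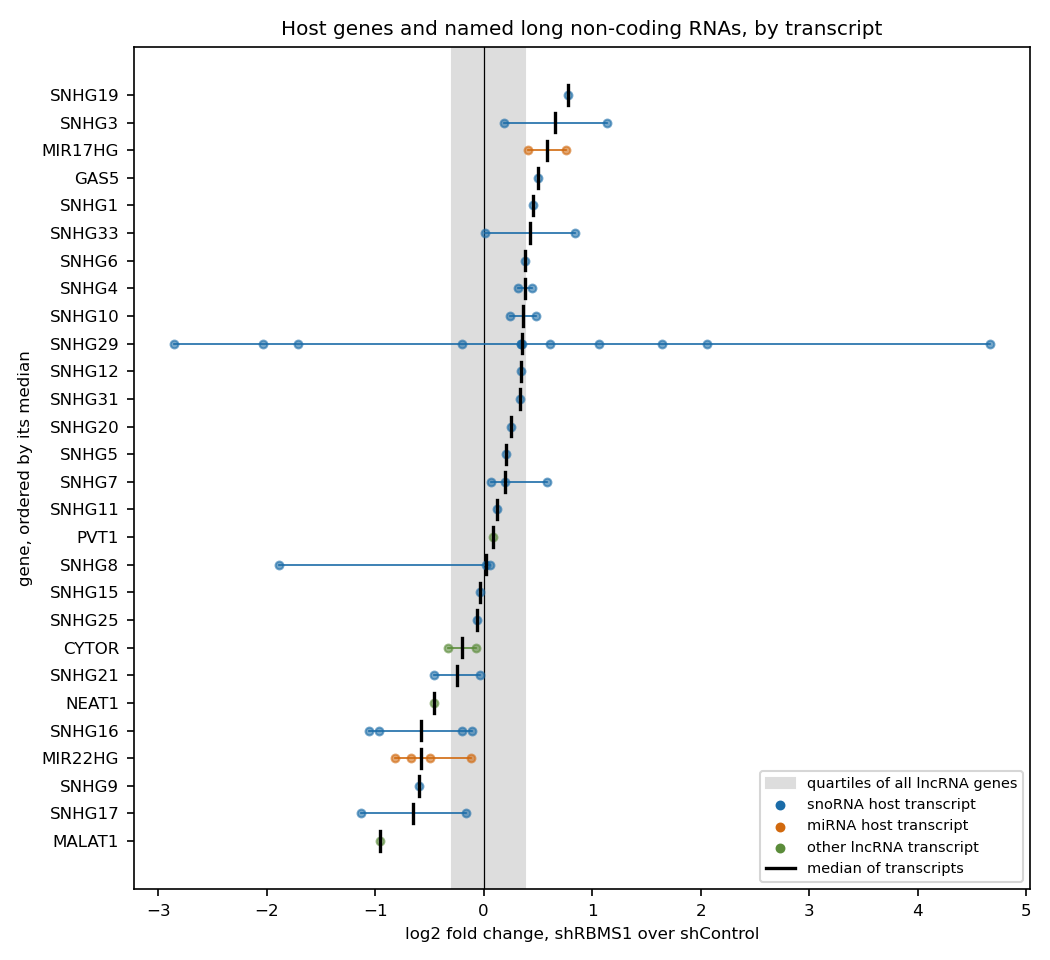
Log2 fold change (x axis, knockdown over control) of every transcript of the 24 host genes and of MALAT1, NEAT1, CYTOR and PVT1, genes ordered by the median (black bar), with the quartiles of all long non-coding genes shaded. SNHG19 is at the top at 0.78 and MALAT1 at the bottom at −0.95, and SNHG29 has the widest spread of transcripts.

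The transcripts of most hosts lay within 1 of each other. Of 12 hosts that have several, 2 held a pair differing by more than 1 (16.7%), against 41.8% of long non-coding genes and 49.3% of all genes with several transcripts. Those 2 were SNHG29 and SNHG8. SNHG17, SNHG16 and SNHG3 fell just under the cut, with ranges of 0.97, 0.96 and 0.95. The median ranges were closer, at 0.76 for hosts, 0.83 for long non-coding genes and 0.98 for all genes. The share also rises with the number of transcripts, over all genes from 36.7% with 2 to 81.0% with 4. SNHG29 has 12 transcripts in the authors' deposited table, from −2.85 to 4.66, and its value of 0.35 sits between transcripts at 0.347 and 0.353. For SNHG8 the authors' deposited table gives 0.03, 0.06 and −1.88, so 1 of 3 stood apart. How reads were divided between transcripts of 1 gene is not stated in the sources used here.

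The 2 measured microRNA hosts lay on opposite sides of 0. MIR17HG, the primary transcript of the miR-17-92 cluster and a MYC target, was at 0.58, which is 150% of the control level, and the authors' deposited table gives 0.41 and 0.76 for its transcripts. MIR22HG, the host of miR-22, was at −0.58, which is 66.8% of the control level, with all 4 transcripts below 0 at −0.82, −0.67, −0.50 and −0.12. For MYC itself the authors' deposited table gives 0.08. The mature microRNAs these hosts carry are shown because the clusters differ in seed, bases 2 to 8, which is in capitals. In MIR17HG, miR-17-5p and miR-20a-5p share 1 seed and the 2 miR-19 arms share another. The sequences are from RefSeq (GRCh38.p14), and levels of the mature RNAs were not analysed here.
hsa-miR-17-5p: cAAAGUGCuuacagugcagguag
hsa-miR-20a-5p: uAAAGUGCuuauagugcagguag
hsa-miR-18a-5p: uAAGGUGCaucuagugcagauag
hsa-miR-19a-3p: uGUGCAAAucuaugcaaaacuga
hsa-miR-19b-3p: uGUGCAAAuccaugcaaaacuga
hsa-miR-92a-3p: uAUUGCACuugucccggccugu
hsa-miR-22-3p: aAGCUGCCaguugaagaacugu

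The 2 abundant nuclear RNAs on chromosome 11 both lay lower. MALAT1, a component of nuclear speckles, was at −0.95, which is 51.7% of the control level in the authors' deposited table, and percentile 4.75 of long non-coding genes. NEAT1, the scaffold of paraspeckles, was at −0.46, which is 72.9% of the control level. The NEAT1 row links to the long isoform of 22743 bases, which is the one that builds paraspeckles. In hg38 NEAT1 lies at 65422798 to 65445540 and MALAT1 at 65497738 to 65506516, so both are neighbours on the plus strand. CYTOR, a cytoplasmic RNA formerly named LINC00152, was at −0.20 from transcripts at −0.33 and −0.07, and PVT1, the neighbour of MYC, at 0.08 in the authors' deposited table.

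The snoRNAs inside the hosts were set beside the host values, and whether they report the same transcription was not tested. The authors' deposited table holds 46 box C/D or H/ACA snoRNA genes that lie inside 17 of the SNHG genes and GAS5. Of these 39 lay above 0 and 7 below, with a median of 0.23. The other 179 snoRNA genes in the table had a median of 0.16 with 132 above 0. Values above 0 were thus the rule for measured snoRNAs in general. By at least 1, 3 of the 46 lay higher and 1 lower, against 5.78% and 1.78% of all snoRNA genes, 7.56% in all. The 29 box C/D snoRNAs had a median of 0.27 and the 17 box H/ACA snoRNAs 0.12. For 33 of the 46 the strand was matched to that of the host, and for 13, most of them in GAS5, only the position was. In 43 of 46 the snoRNA lies outside every exon of the host's linked transcripts. These RNAs are short, and some, such as the SNORA71 and SNORA73 copies, are close copies of each other, so the split of reads among copies is uncertain.

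For hosts above 0, most snoRNAs lay above 0 too, 32 of 36. The count was 7 of 10 in hosts below 0, and 76% of all snoRNA genes lay above 0. GAS5 and SNHG1 hold 10 and 8 of the 36. Of the 12 hosts above 0 with a measured snoRNA, 11 had a snoRNA median above 0. SNHG1 showed this in all 8 of its snoRNAs, from 0.09 for SNORD25 to 1.18 for SNORD30 in the authors' deposited table. SNHG12 was at 0.35 beside 0.22, 0.24, 0.32 and 0.61 for SNORA44, SNORD99, SNORA61 and SNORA16A. In SNHG3 and SNHG19 the snoRNAs stood well under the host, SNORA73A and SNORA73B at 0.12 and 0.22 against 0.66, and SNORD60 at 0.07 against 0.78. The exception was SNHG7, at 0.19, whose SNORA17B and SNORA17A were at −0.43 and 0.12. SCARNA16, a Cajal body RNA that is not counted among the 46, was at −0.06 in SNHG20, at 0.25.

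The 3 snoRNA hosts that lay lowest had snoRNA medians above 0. SNHG16 was at −0.58 while SNORD1C, SNORD1B and SNORD1A stood at 0.42, 0.70 and 1.08 by the authors' deposited table, all above the host. SNHG17 was at −0.65 while its 4 SNORA71 genes ran from −0.01 to 0.22. SNHG9 was at −0.60 and SNORA78 at 0.27, although that value is shared to the last digit with SNORD80 of GAS5. SNHG21 was at −0.25 while SCARNA15, likewise not counted, was at 1.29. The other 2 hosts below 0 with a counted snoRNA had it below 0 as well. SNHG15 was at −0.03 beside SNORA9 at −0.13, and SNHG25 at −0.06 beside SNORD104 at −0.18. Over the 17 hosts, Pearson's r between host and snoRNA median was −0.11 and Spearman's rho 0.17, given as a description over hosts that share the same 3 libraries.

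**Figure D3:**
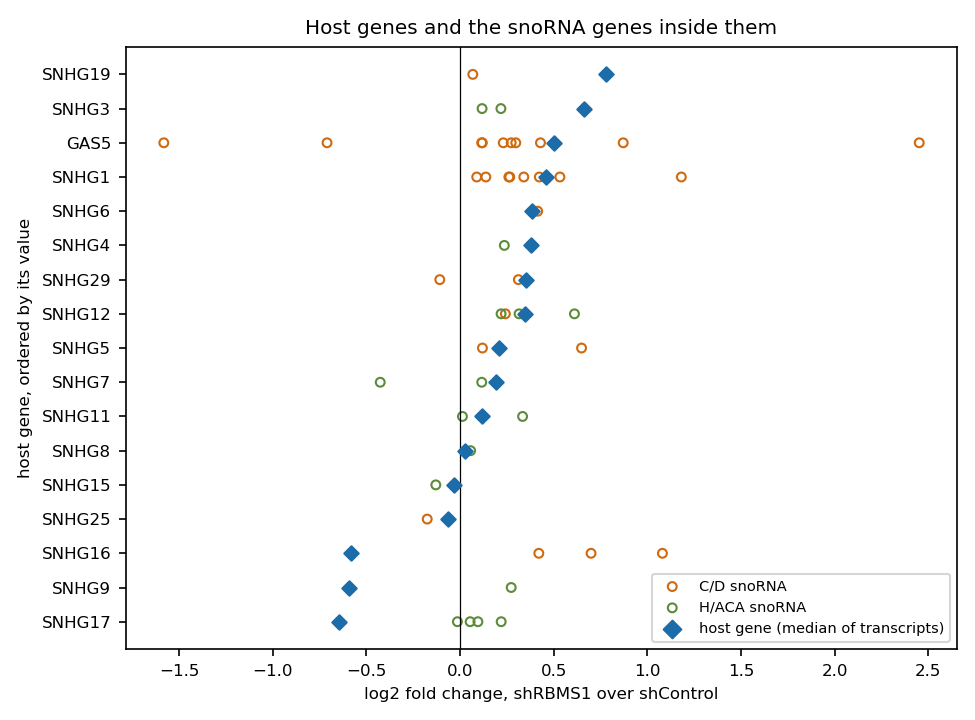
Log2 fold change (x axis, knockdown over control) of 17 host genes (diamonds) and of the box C/D and H/ACA snoRNA genes inside each (open circles), hosts ordered by value. SNHG16, SNHG9 and SNHG17 lie at −0.58, −0.60 and −0.65 and of their snoRNAs SNORA71A alone, at −0.01, is not above 0.

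The SNORD1 snoRNAs of SNHG16 lie on the plus strand of chromosome 17 (GRCh38), SNORD1C at 76558791 to 76558868, SNORD1B at 76561109 to 76561192 and SNORD1A at 76561634 to 76561705. They are shown, from GENCODE 29, because all 3 contrast with the host. Capitals mark the longest stretch common to the 3, 17 bases that hold CTGA, the letters of a D box. How reads that fall in this stretch were assigned is not known here.
SNORD1A: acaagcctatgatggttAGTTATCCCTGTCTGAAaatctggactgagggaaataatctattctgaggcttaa
SNORD1B: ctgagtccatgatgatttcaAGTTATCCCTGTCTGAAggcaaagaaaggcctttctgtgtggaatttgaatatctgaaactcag
SNORD1C: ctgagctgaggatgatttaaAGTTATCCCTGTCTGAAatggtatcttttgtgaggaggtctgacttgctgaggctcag

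Within GAS5 the snoRNAs had a wider range than in any other of the 17 hosts, but GAS5 also has the most measured ones, 10. Its quartile range of 0.28 was near the 0.22 of SNHG1 and the 0.32 of all snoRNA genes. SNORD77 was at 2.45, SNORD75 at 0.87, SNORD78 at 0.43, SNORD47 at 0.30, SNORD80 at 0.27 and SNORD79 at 0.23 in the authors' deposited table. SNORD76 and SNORD44 were both at 0.12, SNORD74 at −0.71 and SNORD81 at −1.58. Thus 8 of 10 lay above 0, and the extremes lay to both sides. The 2.45 of SNORD77 is shared to the last digit with LINC00353 and 1 further gene, 4 rows in all. Such repeated values made up 1.82% of all named rows and 41 of 683 long non-coding rows.

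Many snoRNA hosts are known to start with a terminal oligopyrimidine (TOP) tract, as messenger RNAs of the translation machinery do. A start with a C followed by at least 4 C or T, beginning within 5 bases of the annotated start, was found on the transcribed strand in 10 of 20 host genes with a RefSeq start sequence (50%). The share was 24.2% of long non-coding genes, 29.2% of all genes and 30.3% of LINC genes. The 10 hosts with such a start had a median of 0.27 and the 10 without 0.36. Among those without were SNHG3, GAS5, SNHG1 and SNHG33, at 0.66, 0.50, 0.46 and 0.42. The call depends on the annotated start position, so no conclusion on the tract is drawn from these medians. Picked from the hosts that carry the tract, 3 of the higher ones are shown with SNHG16 and SNHG17, the lower ones. Each sequence holds the 20 bases on each side of the start, with the tract in capitals (RefSeq, GRCh38.p14). The start of SNHG12 is on chromosome 1 at 28581854 to 28581893 on the minus strand, that of SNHG4 on chromosome 5 at 139274081 to 139274120 on the plus strand and that of SNHG19 on chromosome 16 at 2155339 to 2155378 on the minus strand. Those of SNHG16 and SNHG17 are on chromosome 17 at 76557744 to 76557783, plus strand, and on chromosome 20 at 38435309 to 38435348, minus strand.
SNHG12: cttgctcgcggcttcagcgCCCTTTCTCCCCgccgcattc
SNHG4: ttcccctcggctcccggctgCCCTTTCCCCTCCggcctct
SNHG19: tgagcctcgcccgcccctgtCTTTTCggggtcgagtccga
SNHG16: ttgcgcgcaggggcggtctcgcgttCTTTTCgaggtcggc
SNHG17: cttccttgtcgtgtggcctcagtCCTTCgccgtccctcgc

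Lists of proteins that act with the hosts were read next. The snoRNP proteins and their assembly factors, all 20 measured, had a median of 0.12 with 15 above 0 and none beyond 1 in either direction, from 0.51 for DKC1, the pseudouridine synthase, to −0.88 for its assembly chaperone SHQ1. The methyltransferase FBL was at −0.01 and its partners NOP56 and NOP58 at 0.16 and 0.20 in the authors' deposited table. Protein-coding genes that host snoRNAs, ribosomal protein and translation factor genes among them, had a median of 0.15 with 37 of 47 above 0, and none beyond 1. RPL13A, which hosts several box C/D snoRNAs, was at 0.38, and PRRC2A was lowest at −0.52. The non-coding snoRNA hosts, with 16 of 22 above 0, had 72.7% above 0 and these coding ones 78.7%, against 51.5% of all genes, of which 7.91% lay beyond 1.

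The decay, nuclear RNA and microRNA lists were mixed. Nonsense-mediated decay factors had a median of 0.04 with 12 of 22 above 0. The exon junction protein MAGOHB was highest at 0.64, with the helicase UPF1 at −0.10 by the authors' deposited table. Paraspeckle and speckle proteins had a median of 0.01 with 12 of 24 above 0. Of the core paraspeckle proteins, SFPQ was at 0.46, NONO at 0.02 and PSPC1 at 0.51 in the authors' deposited table, beside the lower NEAT1. The speckle scaffold SRRM2 was at −1.20. Nuclear exosome genes had a median of 0.11 with 16 of 23 above 0, from the nuclease DIS3 at 0.81 to SRRT at −0.75. Genes of microRNA processing and the partners of H19 and MYC had a median of −0.14 with 4 of 14 above 0, from IGF2BP2 at 0.34 to the Dicer partner TARBP2 at −0.57, and DROSHA was at −0.40 in the authors' deposited table. Some of these list ends are medians of transcripts on both sides of 0. Those of TARBP2 ran from −7.15 to 0.66, of IGF2BP2 from −0.88 to 1.92 and of SRRT from −2.54 to 1.30. The transcripts of MAGOHB and DIS3 all lay above 0.

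**Figure D4:**
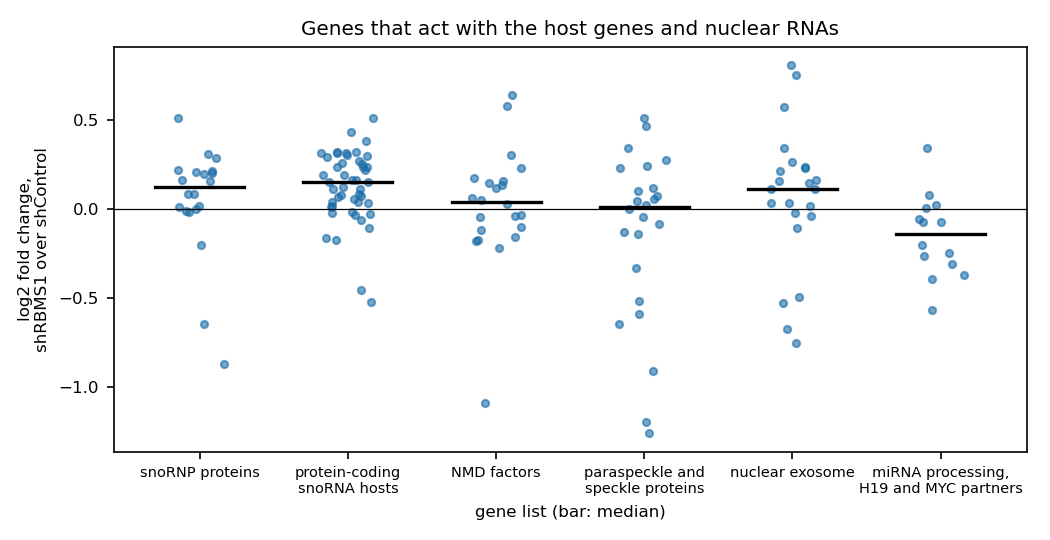
Log2 fold change (y axis, knockdown over control) of each measured gene in 6 lists, with the median of each list as a bar. The medians run from −0.14 for microRNA processing to 0.15 for protein-coding snoRNA hosts.

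The highest LINC genes were LINC01360 at 564% of control, LINC00353 at 2.45, LINC02585 at 1.96, LINC01315 at 1.92, LINC00944 at 1.59 and LINC00850 at 1.57 in the authors' deposited table. LINC01063, LINC00587, LINC01732 and LINC00618 followed at 1.43, 1.39, 1.27 and 1.20. LINC01360 lies on chromosome 1 at 73306170 to 73338877 and LINC01315 on chromosome 22 at 42364400 to 42369208 (hg38). Each of these 10 rests on 1 transcript, and the values of LINC00353 and LINC02585 are shared to the last digit with another gene.

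The lowest were LINC02749 at −1.92, LINC01119 at −1.54, LINC00824 at −1.41, LINC01611 at −1.28, LINC01508 at −1.22, LINC00239 at −1.21 and LINC01278 at −1.11 in the authors' deposited table. LINC02982, LINC01948 and LINC00997 followed at −0.94, −0.86 and −0.79. LINC02749 lies on chromosome 11 at 4187152 to 4202653 and LINC01278 on chromosome X at 63426558 to 63561095. LINC02749 and LINC01508 have values shared with another gene. Closest to 0 were LINC02210 at −0.01, LINC01605 at −0.01, LINC00674 at −0.02, LINC02987 at −0.03 and LINC00641 at −0.04. LINC02210 may have a second transcript, at 0.66, in a row that the RefSeq table does not name and that was left out; with it the gene would not be among these.

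LINC genes far from 0 were mostly short. GENCODE 29 links a spliced transcript to 84 of the 104 (80.8%). Of the 28 linked LINC genes under 1000 bases 14 lay 1 or more from 0 (50%), against 4 of the 56 at or above 1000 bases (7.14%). The median length was 510 bases for the 18 beyond 1 and 1919 bases for the other 66, and Spearman's rho between length and distance from 0 was −0.41 across genes. Over all linked long non-coding genes the shares were 15.9% and 7.89%, with a rho of −0.17. Host genes, by their medians, did not follow this: 13 of 23 linked hosts are under 1000 bases and none lay beyond 1. Single transcripts of these short hosts did lie beyond 1 in SNHG8 (−1.88), SNHG17 (−1.13) and SNHG29 (−2.85 to 4.66). Most LINC genes have 1 transcript, so their values are not medians in the same way. The split at 1000 bases was chosen after the values were seen. The part of low read numbers in these values was not tested, since no level per gene was analysed here.

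**Figure D5:**
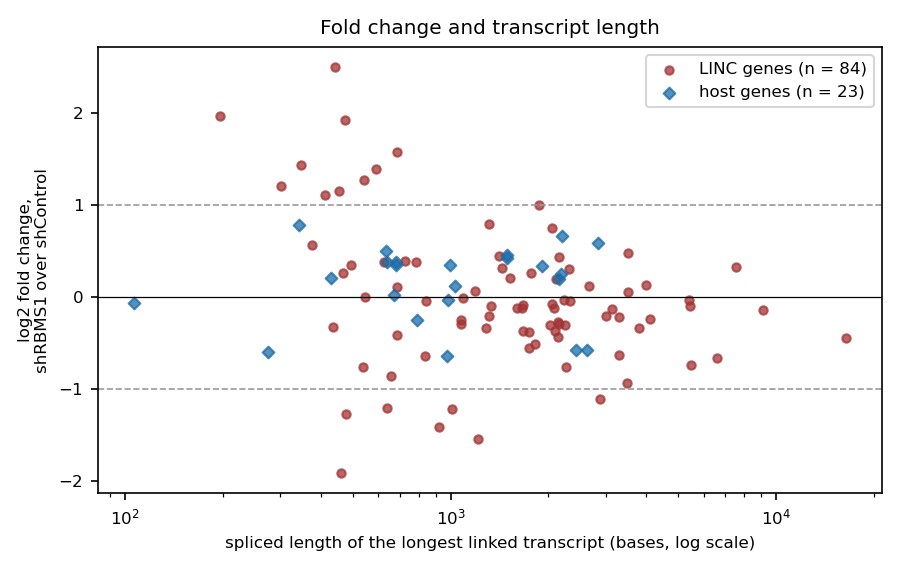
Log2 fold change (y axis, knockdown over control) against the spliced length of the longest linked transcript (x axis, bases, log scale) for 84 LINC genes and 23 host genes. The LINC points fan out below 1000 bases, with 14 of 28 beyond a dashed line at 1 in either direction. Host points of the same lengths stay between the lines. A point is the median where a gene has several transcripts.

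LINC transcripts of 1 gene were seldom comparable, since 96 of the 104 have 1 transcript. Among the 8 with several, LINC00491 and LINC00659 had transcripts more than 1 apart. For LINC00491 the authors' deposited table gives −9.04, 0.07, 0.71 and 1.24, so its value of 0.39 hides 1 transcript at 0.190% of control. LINC00659 had transcripts at −1.64 and 0.11.

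Among LINC genes that have been studied in tumour cells, picked here after the values were seen, both directions occurred. LINC00511 was at −0.77, which is 58.7% of the control level, LINC00668 at −0.56, LINC00941 at −0.44, LINC00460 at −0.38, LINC00673 at −0.31, LINC00857 at −0.30 and LINC01234 at −0.25 in the authors' deposited table. Against these LINC00662 was at 0.75, which is 168% of the control level, LINC00467 at 0.47 and LINC01116 at 0.45. LINC00511 and LINC00673 are neighbours on chromosome 17 and both lay lower.

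RBMS1 is known to bind A+U-rich sequence that includes AUAUA, so ATATA was counted in the linked transcripts, on the transcript strand with overlaps allowed. It occurred in 10 of 23 host genes (43.5%), 46 of 84 LINC genes (54.8%) and 53.8% of long non-coding genes. LINC genes with the letters had a median of −0.13 and those without 0.05, while host genes with them had a median of 0.37 and those without 0.12. Over all linked long non-coding genes the medians were 0.04 with the letters (255 genes) and 0.01 without (219 genes). Longer RNAs hold more such letters by their length alone: NEAT1, of 22743 bases, holds 45 and MALAT1, of 8708 bases, 8.

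Some members share their locus with a measured protein-coding gene, and whether reads were counted by strand is not stated in the sources used here. Of the host genes 7 overlap one, and of the LINC genes 6. Overlap was taken from whole gene spans, and shared exons were not examined. GAS5, at 0.50, overlaps ZBTB37 on the other strand, which the authors' deposited table puts at 0.50 too. If strand was not used, reads in a shared stretch could not be assigned to 1 of the genes, but whether this shaped the values was not tested. SNHG12, at 0.35, overlaps TRNAU1AP on the other strand, at 0.66. SNHG29 and LRRC75A on the other strand were at 0.35 and −0.94, and on the same strand SNHG3 and RCC1 were at 0.66 and −0.03, and SNHG20 and SEC14L1 at 0.25 and −0.58. Among LINC genes, LINC00294 at −0.63 overlaps TCP11L1 at 0.62 on the same strand.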

How the data were processed

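Total RNA libraries of SW480 cells (2 control, 1 RBMS1 knockdown) were grouped by the shRNA in the labels. The deposited file gives 1 log2 fold change for each RefSeq transcript, computed by the authors. STAR 2.5, Cufflinks, Cuffdiff and hg38 are named, with no roles or settings, per the submitters' processing notes. Filters on low levels and library depths are not stated in the sources used here, so no error or interval was computed. The header gives no base; base 2 was taken because 20 rows lay 1 away, within 1.5e-05, from a value held by at least 3 rows, against 4 and 5 rows for ln 2 and log10 of 2.

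A RefSeq gene table (GRCh38.p14, the same assembly as hg38) named 19818 of 20104 transcripts (98.6%), and 1950 of 2110 NR rows. Rows of 1 gene were joined by their median. GENCODE 29 models were linked to 138 of the 172 member rows and 111 of the 132 genes, and a gene's longest linked model gave length and letters. GENCODE places 1 unnamed row, at 0.66, in LINC02210; it was left out. RefSeq start sequences were found for 20 of 24 host and 76 of 104 LINC genes. Genes at or beyond 1 were counted with no test. The text names every host gene, the 10 highest and lowest and the 5 nearest 0 of the LINC genes, those with transcripts over 1 apart, and the ends of the lists, of which some are not reported here. Members, lists and settings were chosen with earlier results of these data known. Comparisons with nested snoRNAs, the length split, shared values and members without overlap were added after the values were seen. Summary functions were tested on shuffled deposited values with known shifts added. Python 3.11.15, numpy 2.4.6, pandas 2.3.3, scipy 1.17.1 and matplotlib 3.10.9 were used.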

Additional observations from a re-analysis of the deposited data

How the results depend on the processing

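No median changed sign under the settings run, several of which could not have moved a value: no member lay beyond 5, and centring leaves a quartile range as it is. With the transcript nearest 0 as the value of a gene, the median of host genes was 0.15 instead of 0.29. Centred on the genes with NR rows alone, whose median was 0.10, the medians were 0.19 for host genes and −0.15 for LINC genes. In genes that overlap no measured protein-coding gene, a setting chosen after seeing the data, the host median was 0.12 and the LINC median −0.09. At a threshold of 0.58, 3 of 24 host genes lay higher and 4 lower. The absence of host genes beyond the threshold, by gene median, thus holds at 1 but not at 0.58. Of 104 LINC genes, 17 then lay higher instead of 13 and 17 lower instead of 7, with no excess in either direction. The share over all genes at 0.58 is not reported here. At a threshold of 2, 2 LINC genes lay higher instead of 13 and 0 lower; these follow from the threshold itself. Without values shared with another gene, also added, 11 LINC genes lay higher and 5 lower. Without SNHG29, likewise added, the host median was 0.25. Leaving out a library was not possible, since the deposited values join all 3 libraries. No paired analysis was possible because the table holds 1 value per transcript and the knockdown has 1 library. Depth limits every value to an unknown degree.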
